A study of Rattus norvegicus with 24 samples.

Results

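Inhaled formaldehyde meets the lining of the nose first, and the arrays described here compare what 7 days of exposure did to gene expression in nasal tissue with what it did in circulating white blood cells. They are the 12 arrays of the series' 24 whose titles give 7 days, and they form 4 groups of 3 arrays: control nose, exposed nose, control white blood cells and exposed white blood cells. The quantity followed throughout is the difference of effects, which is exposed minus control in nose minus exposed minus control in white blood cells, on the log2 scale. A gene was placed by this difference and by the effect in each tissue among those that moved in nose only, in blood only, in both in the same direction or in opposite directions.

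The animals were male Fischer rats of about 8 weeks at the start, all of them accustomed beforehand to the exposure tubes. Exposed rats breathed 2 ppm formaldehyde, vaporised from an isotope-labelled paraformaldehyde, through the nose for 6 hours a day over 7 days. Control rats were held in such tubes for as long with room air. Nasal tissue was dissected from the maxilloturbinate, a scroll of bone in the front of the nasal cavity, so it holds connective tissue, vessels and immune cells along with the epithelium. White blood cells were separated from whole blood, taken from the heart, in cell preparation tubes. The labels do not say that the 3 arrays of a group are separate rats, nor that nose and blood arrays of the same number come from the same rat, so a p-value here measures the spread among these arrays and nothing wider.

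Formaldehyde is a small reactive aldehyde that crosslinks protein and DNA, and inhaled formaldehyde is known to be taken up mostly by the nasal lining. That lining carries respiratory epithelium, with ciliated, mucous and basal cells, and olfactory epithelium, whose sensory neurons each display an odorant receptor. White blood cells kept by such tubes are mainly lymphocytes, natural killer (NK) cells and monocytes, with platelets and some red cell precursors. Both tissues are mixtures, and in bulk RNA fewer cells of a type and less RNA per cell cannot be told apart.

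The labels were checked against marker genes. Markers of ciliated cells had a median rank at percentile 72.4 to 79.1 of all probe sets on the nose arrays and 23.8 to 26.1 on the blood arrays, and T cell markers stood at 93.5 to 95.2 on the blood arrays and 34.4 to 44.0 on the nose arrays. Markers of platelets (98.0 to 98.3) and of the red cell lineage (92.6 to 97.0) also ranked high on the blood arrays. Markers of olfactory neurons ranked at 64.6 to 97.5 on the nose arrays, the widest of these ranges, and their mean moved with exposure in nose. Relative to the control mean it lay at -0.74 to 0.48 on the 3 control nose arrays and at 1.29 to 1.60 on the 3 exposed nose arrays, and it stayed within 0.02 of the control mean in blood. How much olfactory lining each nose sample held is not in the labels, and its part in the effects in nose was not tested. The deviation from the other 2 arrays of the group was largest on control nose array 1, exposed nose array 1 and control blood array 2 (root mean square 0.21, 0.23 and 0.22, against 0.14 to 0.19 on the other 9).

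More genes were called in exposed nose than in exposed blood, and most of the called genes were called in 1 tissue only. Of 20076 probe sets tested, limma called the difference of effects for 5474, or 27.3%, at a Benjamini-Hochberg adjusted p under 0.05: 1957 (9.75%) were higher in nose relative to blood and 3517 (17.5%) lower. The effect in nose was called for 5976 probe sets (29.8%) and that in blood for 2450 (12.2%), 7.27% of all being higher and 4.94% lower. Of the blood calls 59.6% were higher, and with each array centred on its median 44.6% of the blood calls were higher. Nose and blood arrays share 1 estimate of the spread in this fit, and with blood fitted alone 599 probe sets were called there. With 1 probe set per named gene, 11050 genes were tested. The difference was called for 31.6% of them, 11.6% higher and 20% lower. The effect in nose was called for 35.4% (13.9% higher, 21.6% lower) and that in blood for 13.4% (7.94% higher, 5.48% lower). Each count of a gene list given here is to be set beside these shares. The median over all genes was -0.06 in nose, 0.04 in blood and -0.09 for the difference.

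By these calls 2283 genes moved in nose only (20.7%), meaning that the nose effect and the difference were called and the blood effect was not. In 90.6% of them the 95% interval of the blood effect stayed within 1.5-fold of no change. Many nose-only genes were dim in blood, though. Only 51.5% of them stood at or above the median of all probe sets in both tissues, against 63.7% of all genes. On the 28 day control arrays 72.4% were higher in nose than in blood, against 62.5% of all genes. For a gene dim in blood a narrow interval does not show that a change could have been measured. Another 661 genes (5.98%) moved in blood only, and for 95.5% of these the interval of the nose effect stayed within 1.5-fold. The effect in nose was called for 3915 genes and that in blood for 1482, and 346 genes were common to the 2 lists, or 8.84% of the nose list and 23.3% of the blood list, where 13.4% of all genes were called in blood and 35.4% in nose. Of these 346 genes 148 (42.8%) moved in opposite directions and 198 in the same direction. Over all genes, called or not, the 2 effects had opposite signs in 51.7%. A further 398 genes (3.6%) had a called difference with neither effect called on its own, and 1286 and 475 had an effect called in nose or in blood with no called difference. No call was made for 5601 genes (50.7%). Exposed and control arrays did not overlap for 59.2% of all genes in nose and for 32.8% in blood.

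The classes were unequally stable when single arrays were left out. In all 12 fits that each left out 1 array, called leave-one-out fits here, 1199 of the 2283 nose-only genes (52.5%), 226 of the 661 blood-only genes (34.2%), 34 of the 198 same-direction genes (17.2%) and 24 of the 148 opposite genes (16.2%) kept their class. The called difference itself held in all 12 fits for each of the 148 opposite genes. The count called in blood rested most on single arrays: 2450 probe sets became 1125 without control blood array 2, and also fell by more than 1.5 times without any 1 of the exposed blood arrays. The 5976 in nose became 3755 without exposed nose array 1.

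**Figure D1:**
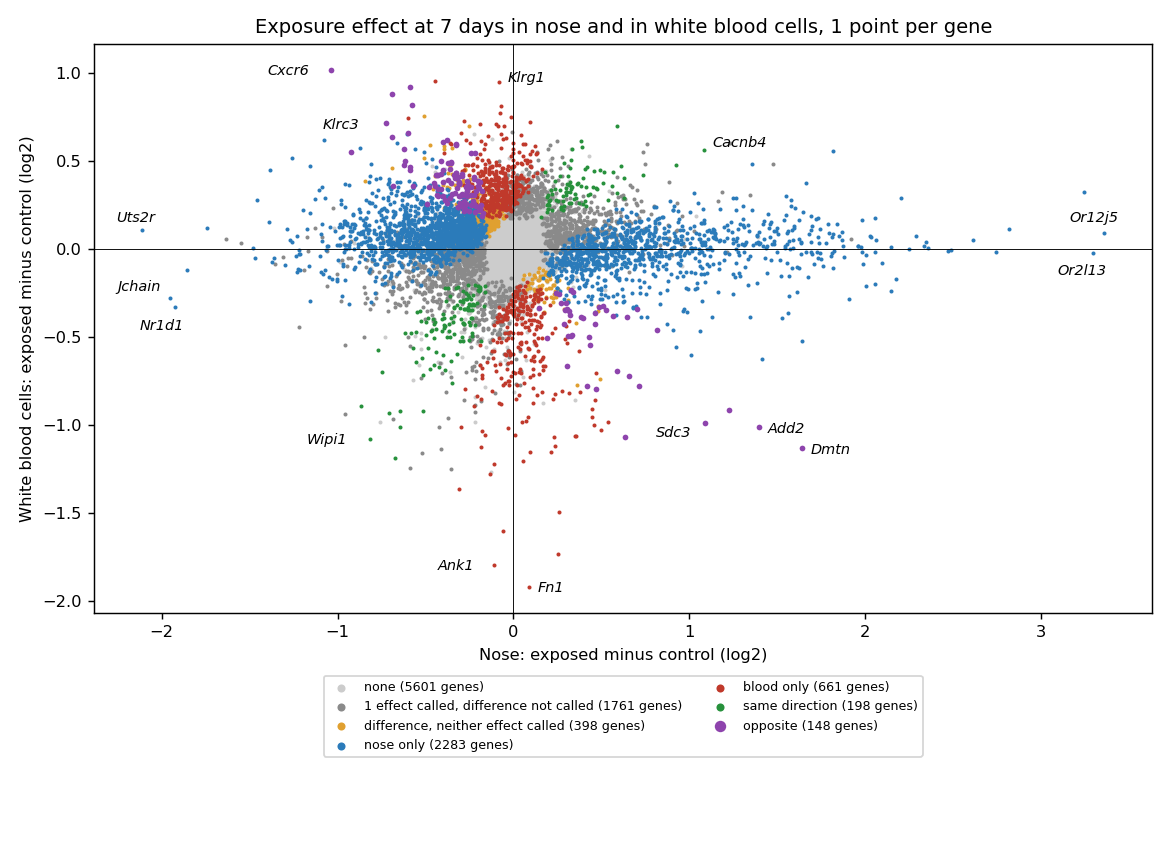
Exposure effect of each of 11050 genes at 7 days, with the effect in nose on the horizontal axis and the effect in white blood cells on the vertical axis, both log2 exposed minus control of 3 arrays each. Colours give the class of the gene, and the points spread along the 2 axes more than along the diagonals: 2283 genes moved in nose only, 661 in blood only, 198 in the same direction and 148 in opposite directions.

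Cxcr6, Klrc3 and Il12rb2, genes of cytotoxic lymphocytes, fell in exposed nose and rose in exposed blood. The chemokine receptor gene Cxcr6, which marks tissue-homing T and NK cells, led the genes that were lower in nose and higher in blood. On probe set 10914607 its log2 intensity was 8.92, 8.41 and 8.93 on the control nose arrays and 7.52, 7.82 and 7.82 on the exposed nose arrays. In blood it was 9.91, 9.45 and 9.66 on the control arrays and 10.90, 10.50 and 10.68 on the exposed arrays. Each exposed nose array lay below each control nose array, and each exposed blood array above each control blood array. Cxcr6 thus fell 2.05-fold in nose (log2 -1.04 ± 0.16 SE, adjusted p = 0.000991) and rose 2.03-fold in blood (1.02 ± 0.16, adjusted p = 0.00451). The difference of effects was -2.06 ± 0.23 (limma, Benjamini-Hochberg adjusted p = 0.00107), and the gene stayed in the opposite class in all 12 leave-one-out fits. At 28 days, on separate arrays, the difference for Cxcr6 was -1.21 and was not called.

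Klrc3, which encodes a lectin-like receptor of NK cells, behaved in the same manner. Its values were 7.89, 7.58 and 7.95 in control nose against 7.00, 7.04 and 7.20 in exposed nose, and 10.80, 10.58 and 10.94 in control blood against 11.48, 11.39 and 11.59 in exposed blood. The arrays of the 2 conditions did not overlap in either tissue, and the effects were -0.72 ± 0.11 in nose and 0.71 ± 0.11 in blood, with a difference of -1.44 ± 0.16 (adjusted p = 0.00107). The exposed nose levels of Klrc3 lay close to 6.90, below which a probe set counted as dim in nose. Il12rb2, the signalling chain of the receptor for interleukin 12, went from 7.54, 7.53 and 7.61 to 6.71, 6.87 and 7.03 in nose, the exposed arrays on both sides of that limit. In blood Il12rb2 went from 9.51, 9.26 and 9.52 to 10.05, 9.87 and 10.27. Again no array of one condition overlapped the other, and the difference for Il12rb2 was -1.33 (adjusted p = 0.00156). Klrc3 and Il12rb2 also kept their opposite calls in all 12 fits, and at 28 days their differences were -1.19 and -1.35.

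A list of NK and cytotoxic cell genes, which holds none of these 3, was lower in nose relative to blood, with 2 of its members in the opposite class, 3 in nose only and 4 in blood only. Of its 12 tested genes, 10 had a called lower difference against 20% of all genes, 5 fell in nose against 21.6%, and 6 rose in blood against 7.94%. All 12 had a difference below 0 and the median was -0.64, against -0.09 over all genes. On the exposed nose arrays the mean of the list lay 0.22 to 0.30 below the control mean, and on the exposed blood arrays it lay 0.37 to 0.47 above it. The count in nose was 3 without control nose array 1 or exposed nose array 1. With no filter on dim probe sets all 21 genes of the list on the array could be tested. Of these 17 had a lower difference, 10 fell in nose and 13 rose in blood. In that setting 3498 of all 29214 probe sets had a lower difference, 3997 fell in nose and 1040 rose in blood. The units differ, since the list was counted with 1 probe set per gene and the latter counts take every probe set, with or without a symbol.

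Members of this list divided by tissue. The cytotoxic protease gene Gzmb moved in blood only: its values were 11.10, 11.03 and 11.29 on control and 11.82, 11.73 and 11.98 on exposed blood arrays, a rise of 0.70, while its effect in nose was -0.09. Klrg1, an inhibitory receptor of differentiated NK and T cells, likewise rose by 0.95 in blood, from 9.44, 8.98 and 9.09 to 10.16, 9.99 and 10.20, with -0.08 in nose. In nose both Gzmb (8.38 to 8.57) and Klrg1 (7.10 to 7.25) stood at much the same level on all 6 arrays. The level of Klrg1 lay close to 6.90, the limit for dim probe sets in nose, so a change of Klrg1 there could be missed. Klrk1, which encodes the activating receptor NKG2D, moved in nose only, at -1.09 in nose and 0.35 in blood. Nkg7, a protein of cytotoxic granules, had -0.35 in nose and 0.49 in blood, and its nose call ended without control nose array 1, exposed nose array 1 or exposed nose array 2 (range -0.42 to -0.26). Ccl5, a chemokine released by cytotoxic cells, had -0.36 and 0.29, and its blood call held in 5 of the 12 leave-one-out fits (0.21 to 0.34).

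T cell genes fell in part in nose and had few calls in blood. Of 17 tested T cell genes 7 fell in nose, and 1 rose and 1 fell in blood, with 6 lower differences and a median of -0.25. Of all genes 21.6% fell in nose and 20% had a lower difference, and the 6 became 3 without the 3 arrays that stand apart. The gene that rose was Cd3g, a chain of the T cell receptor complex, at -0.31 in nose and 0.24 in blood (adjusted p = 0.0474), and its blood call held in 1 of the 12 leave-one-out fits (0.18 to 0.30). Il7r, the receptor of a T cell survival cytokine, moved in nose only at -0.98.

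Dmtn, Add2, Tmod1 and Sdc3 showed the reverse pattern, higher in exposed nose and lower in exposed blood. Dmtn encodes dematin, an actin-bundling protein of the red cell membrane skeleton that other cells make as well. On probe set 10785116 its values were 8.90, 9.91 and 9.75 in control nose and 11.41, 11.06 and 11.02 in exposed nose. In blood they were 9.13, 9.96 and 9.01 on the control arrays and 8.31, 8.26 and 8.14 on the exposed arrays. The groups did not overlap in either tissue, although control nose array 1 was low and control blood array 2 high within their groups. Dmtn rose by 1.64 ± 0.27 in nose and fell by 1.13 ± 0.27 in blood, and the difference, 2.78 ± 0.38 (adjusted p = 0.00209), was the highest of the 40 genes in this direction.

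Add2, the beta subunit of adducin, which caps actin filaments at spectrin junctions, went from 8.07, 8.81 and 8.64 to 10.26, 9.71 and 9.74 in nose. In blood Add2 went from 11.94, 12.47 and 11.74 to 11.13, 11.22 and 10.75. Tmod1, tropomodulin, which caps the other end of these filaments, went from 9.47, 9.69 and 9.62 to 11.08, 10.69 and 10.69 in nose and from 10.93, 11.70 and 10.62 to 10.42, 10.24 and 9.84 in blood. In all 4 pairs of groups the exposed and control arrays stood apart, with differences of effects of 2.41 for Add2 and 2.14 for Tmod1. Sdc3, a heparan sulfate proteoglycan of neurons, had 1.09 in nose and -0.99 in blood. The differences of Dmtn, Add2, Tmod1 and Sdc3 were called in all 12 leave-one-out fits, and so were their rises in nose. Their falls in blood were less secure: that of Dmtn was lost without control blood array 2 or any 1 exposed blood array (-1.31 to -0.84), that of Add2 without control blood array 2 or exposed blood array 3 (-1.17 to -0.80), that of Tmod1 without control blood array 2 or exposed blood array 2 or 3 (-1.14 to -0.60), and that of Sdc3 without control blood array 2 (-1.11 to -0.80). With the 28 day arrays in the same fit the blood falls of Dmtn, Add2 and Tmod1 were not called. At 28 days the differences were 1.12, 1.25, 0.57 and 0.98.

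**Figure D2:**
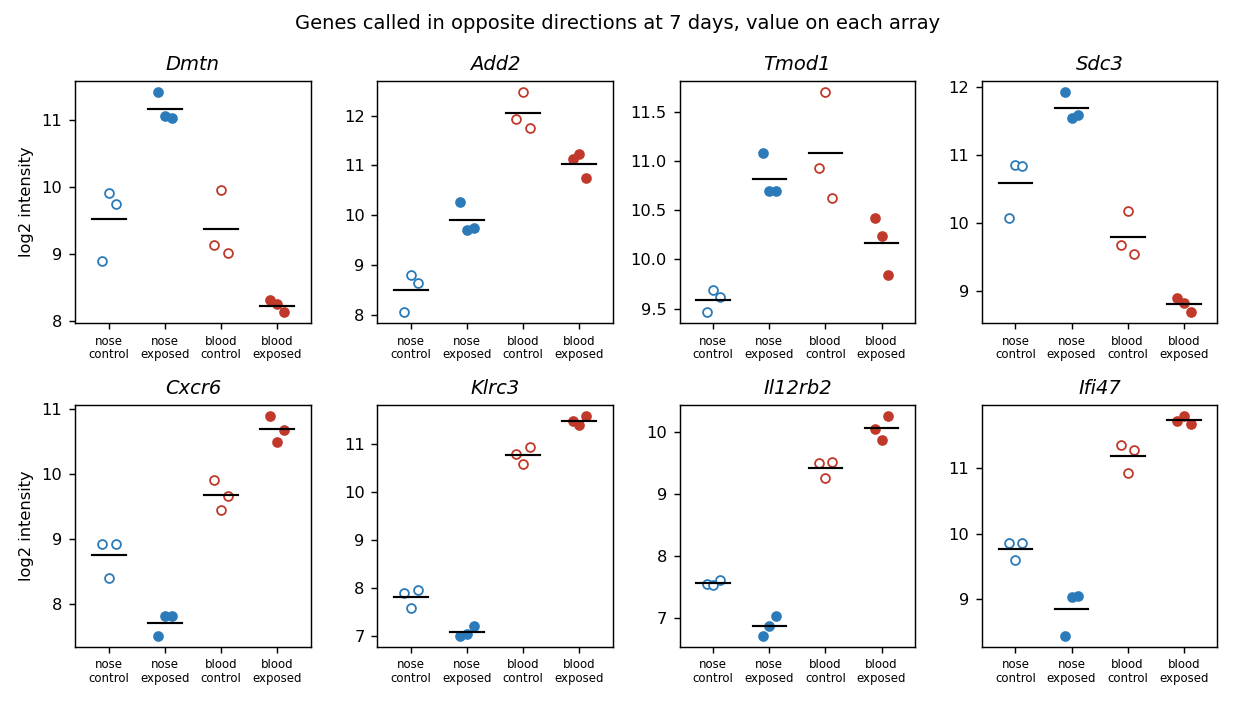
Log2 intensity of 8 genes called in opposite directions, 1 panel per gene, with 1 point per array (open, control; filled, exposed; blue, nose; red, white blood cells) and a bar at each group mean of 3 arrays. Dmtn, Add2, Tmod1 and Sdc3 are higher in exposed nose and lower in exposed blood; Cxcr6, Klrc3, Il12rb2 and Ifi47 are lower in exposed nose and higher in exposed blood, and in no panel does an exposed array cross a control array of its tissue.

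Apart from Dmtn, no gene on the list of the red cell lineage was called higher in nose. The list does not hold Add2 or Tmod1. Of the 17 tested, 10 fell in blood against 5.48% of all genes, and none rose. In nose 6 fell and 1 rose, against 21.6% and 13.9% of all genes, and 10 were not called. The 1 that rose was Dmtn. In blood the mean of the list ran from -0.21 to 0.28 on the control arrays around their own mean and from -0.74 to -0.49 on the exposed arrays. The count of 10 was 6 without control blood array 2 or exposed blood array 1. Every class met in this list, with 1 gene opposite, 4 in blood only, 3 in nose only and 3 in the same direction.

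Several structural genes of the red cell membrane moved in blood only. Ank1, ankyrin, which ties the spectrin skeleton to the membrane, went from 10.74, 11.48 and 10.67 on the control blood arrays to 9.30, 9.32 and 8.87 on the exposed ones, so that Ank1 fell by 1.80 (adjusted p = 0.00105). In nose Ank1 stood at 7.21 to 7.41 on all 6 arrays, with an effect of -0.11 and a difference of 1.69 (adjusted p = 0.00276). These nose levels lay close to the 6.90 limit for dim probe sets and below the nose median of 8.27, so a change in nose could be missed. Sptb, the beta chain of spectrin, fell by 1.60 in blood and had -0.06 in nose. Epb42, another protein of this skeleton, fell by 0.81 in blood, and Klf1, the erythroid transcription factor, had -1.06 in blood, with -0.12 and 0.01 in nose. The difference for Klf1 was lost without exposed blood array 3 (range 0.77 to 1.28), and that for Epb42 held in 3 of the 12 leave-one-out fits (0.50 to 0.83).

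Hbb and Alas2, of globin and heme synthesis, fell in nose. Hbb, the beta chain of hemoglobin, went from 12.33, 12.18 and 12.34 to 10.21, 11.72 and 10.84 in nose, and fell by 1.36 with the lowest value on exposed nose array 1. In blood Hbb was high throughout, at 13.97 to 14.07 on the control and 13.94 to 13.98 on the exposed arrays, where the brightest probe set stood at 14.22 to 14.29. So close to the top of the scale a change in blood could not be read, and its difference of -1.31 rests on that. The difference was lost without exposed blood array 1 (range -1.71 to -0.95). Alas2, the first enzyme of heme synthesis in red cells, had -1.16 in nose and -0.29 in blood, and its difference held in 6 of the 12 fits. Slc4a1, the anion exchanger of red cells, and Fech, the last enzyme of heme synthesis, fell in both tissues, by 0.52 and 0.62 and by 0.47 and 0.68 in nose and blood. The fall of Fech in nose held in 9 of the 12 leave-one-out fits (-0.54 to -0.38).

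Interferon-gamma response genes were lower in nose relative to blood. Interferon gamma, which T and NK cells secrete, switches on genes of antigen processing and guanylate-binding GTPases. Of the 22 tested genes, 15 had a lower difference and none a higher one, 18 fell in nose, and 2 rose in blood. The median was -0.58 for the difference, -0.44 in nose and 0.13 in blood, and 21 of the 22 differences lay below 0. The mean of the list lay 0.35 to 0.67 below the control mean on the exposed nose arrays and 0.07 to 0.17 above it on the exposed blood arrays. The counts of 15 and 18 moved by less than 1.5 times when an array was left out. Of all genes 20% had a lower difference, 21.6% fell in nose and 7.94% rose in blood. The 2 that rose in blood were 9.09% of the list, near the share of all genes.

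The 2 genes that also rose in blood were Ifi47 and Psme2. Ifi47, an immunity-related GTPase, went from 9.86, 9.59 and 9.85 to 8.44, 9.04 and 9.05 in nose and from 11.36, 10.92 and 11.27 to 11.72, 11.80 and 11.67 in blood. Both shifts left the groups apart, at -0.92 (adjusted p = 0.00155) and 0.55 (adjusted p = 0.0425), but the blood call held in only 5 of the 12 fits (0.42 to 0.64). Psme2, a subunit of the proteasome activator PA28, went from 11.73, 11.67 and 11.81 to 11.24, 11.48 and 11.52 in nose and from 12.18, 11.74 and 11.85 to 12.57, 12.47 and 12.51 in blood. Its effects were -0.33 and 0.59, and here the nose call held in 4 of the 12 fits (-0.38 to -0.24). The differences of Ifi47, -1.48, and of Psme2, -0.92, were called in all 12.

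Other members of the list moved in nose only. Gbp2, a guanylate-binding protein, fell by 0.55 in nose and had 0.29 in blood, with a difference of -0.84. Irf1, the transcription factor of this response, fell by 0.76, Psmb9, a subunit of the immunoproteasome, by 0.71, and the GTPase gene Irgm by 0.72. The fall of Irgm was lost without control nose array 1 (range -0.88 to -0.42). Gbp2 had a called difference at 28 days as well, at -1.09 (adjusted p = 0.0321).

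Type I interferon genes were divided. Of 33 tested, 16 fell and 2 rose in nose, 1 rose and 1 fell in blood, and 10 differences were lower and 2 higher, with a median difference of -0.28. Of all genes 21.6% fell in nose and 20% had a lower difference. The 16 became 8 without control nose array 1, 9 without control nose array 3, 7 without exposed nose array 1 and 3 without the 3 arrays that stand apart. The count of 10 ran from 4 to 6 in 8 of the 12 leave-one-out fits, among them those without control nose array 1 (5) and control blood array 2 (4). Cmpk2, an interferon-induced kinase of nucleotide metabolism, went against the list: it rose from 8.88, 9.12 and 9.03 to 9.89, 9.60 and 9.68 in nose and fell from 11.75, 12.22 and 11.46 to 11.12, 11.15 and 10.82 in blood. Its groups did not overlap, its difference was 1.49 (adjusted p = 0.00279) and it kept the opposite class in all 12 leave-one-out fits. Its fall in blood was not called when blood was fitted alone or with the 28 day arrays in the fit. Ifi44l, another interferon-induced gene, had -0.45 in nose and 0.36 in blood, and its blood call held in 5 of the 12 leave-one-out fits (0.26 to 0.42). Mx2, an antiviral GTPase, rose by 1.14 in nose with 0.07 in blood.

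Many monocyte, chemokine and MHC class II genes fell in nose, with few calls in blood. Of 25 monocyte and macrophage genes 14 fell in nose, 1 rose and 1 fell in blood, and 13 had a lower and 1 a higher difference, with a median of -0.59. The count of 13 became 8 without exposed nose array 1, exposed blood array 1 or exposed blood array 2, and the 14 in nose became 4 without control nose array 1. In blood the mean of this list varied among the controls alone from -0.34 to 0.32. Ctss, cathepsin S, a lysosomal protease of antigen presentation, was the member in the opposite class, at -0.59 and 0.45, the latter lost without control blood array 2 or exposed blood array 1 or 2 (0.31 to 0.54). Of 26 cytokine and chemokine genes 16 fell in nose and 14 had a lower difference, with a median of -0.50. The 16 became 10 without exposed nose array 1. For both lists the shares of all genes were 21.6% lower in nose and 20% with a lower difference. Cx3cl1, a chemokine anchored on endothelium and epithelium, had -1.10 in nose and Ccl21, which guides cells to lymph vessels, -1.06, with 0.34 and 0.02 in blood. Il18, a cytokine that induces interferon gamma, had -0.37 in nose and 0.49 in blood, calls that held in 4 and 8 of the 12 leave-one-out fits. In the list of MHC class II presentation 10 of 14 genes fell in nose, against 21.6% of all genes, and 5 did so without the 3 arrays that stand apart. Only 3 of the 14 had a lower difference, against 20% of all genes, and leave-one-out fits gave 1 to 6. RT1-Ba, a class II alpha chain, had -0.57 in nose and -0.01 in blood, and its difference held in 5 of the 12 leave-one-out fits (-0.64 to -0.43).

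Odorant receptor genes were among those with the highest differences. Or2l13, an odorant receptor gene, went from 7.84, 7.63 and 7.64 to 11.49, 10.49 and 11.03 in nose and stayed at 8.01 to 8.35 in control and 8.04 to 8.18 in exposed blood. The rise was 9.82-fold (3.30, adjusted p = 4e-06), the effect in blood -0.03 and the difference 3.32 (adjusted p = 0.000197). Omp, the olfactory marker protein of mature sensory neurons, went from 9.62, 11.66 and 11.33 to 13.07, 12.80 and 12.75 in nose. Control nose array 1 was the low one, and the difference of Omp was 2.21. Among 18 tested olfactory neuron genes 15 had a higher and 2 a lower difference, against 11.6% and 20% of all genes. In blood 0 of the 18 were called. Adcy3, the adenylyl cyclase of odour signalling, had 1.91 in nose and -0.28 in blood.

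Of 179 odorant receptor genes that passed the filter 141 rose in nose, 2 rose in blood, and 101 had a higher and 0 a lower difference. The filter takes the mean over control and exposed arrays of each tissue, so a receptor dim in control nose can pass in nose through its exposed arrays. It must also pass in blood. These counts thus depend on the filter and do not stand for all 1105 receptors on the array. With no filter 783 receptor genes rose in nose and 599 had a higher difference. Of all 29214 probe sets 3540 and 2732 did so in that setting. The units differ: receptors were counted with 1 probe set per gene, and the latter counts take every probe set, receptors and those without a symbol included. Of 17 genes of precursors and immature neurons of this lineage on the array 9 were tested. Of these 6 had a higher difference, against 11.6% of all genes, and leave-one-out fits gave 4 to 7. Without the 3 arrays that stand apart 4 did, and the median difference went from 0.867 to 0.255. Crmp1, a protein of growing axons, had a difference of 1.22. At 28 days the median difference of the olfactory neuron genes was 0.95, with 2 of 18 below 0.

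Most vessel genes and many matrix genes fell in nose. Of 19 genes of endothelium and pericytes 17 fell and 1 rose in nose, 1 fell in blood, and 15 had a lower difference and 0 a higher one. The median was -0.70 in nose and 0.02 in blood, and the list mean lay 0.49 to 0.76 below the control mean on the exposed nose arrays and at most 0.06 below it in blood. Sox18, a transcription factor of endothelium, fell by 0.88 and Kdr, the main receptor of vascular growth factor, by 0.68, with 0.09 and 0.13 in blood. Of 19 fibroblast and matrix genes 10 fell in nose and 8 had a lower difference, among them Mmp14, a membrane-bound matrix protease, at -0.66 in nose and 0.05 in blood. The counts of both lists moved by less than 1.5 times when an array was left out. Of all genes 21.6% fell in nose and 20% had a lower difference.

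Single genes of other roles also fell in nose alone. Jchain, the joining chain of secreted antibodies, went from 11.39, 11.37 and 11.27 to 8.74, 9.76 and 9.67 in nose, and so fell by 1.95, and was 9.72 to 10.09 in control and 9.30 to 9.88 in exposed blood. Nr1d1, the clock repressor REV-ERB alpha, went from 11.08, 11.20 and 11.08 to 8.46, 9.34 and 9.78 in nose, a fall of 1.92, against -0.33 in blood. In both genes exposed nose array 1 was the lowest, and no exposed array reached the controls. Of 18 clock genes 3 rose and 7 fell in nose and 2 fell in blood, against 13.9%, 21.6% and 5.48% of all genes, and the 3 were as few as 1 in the leave-one-out fits. Cry1, a repressor in the same loop, rose by 0.58 in nose. Uts2r, the urotensin receptor gene, fell by 2.11 in nose with 0.11 in blood.

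**Figure D3:**
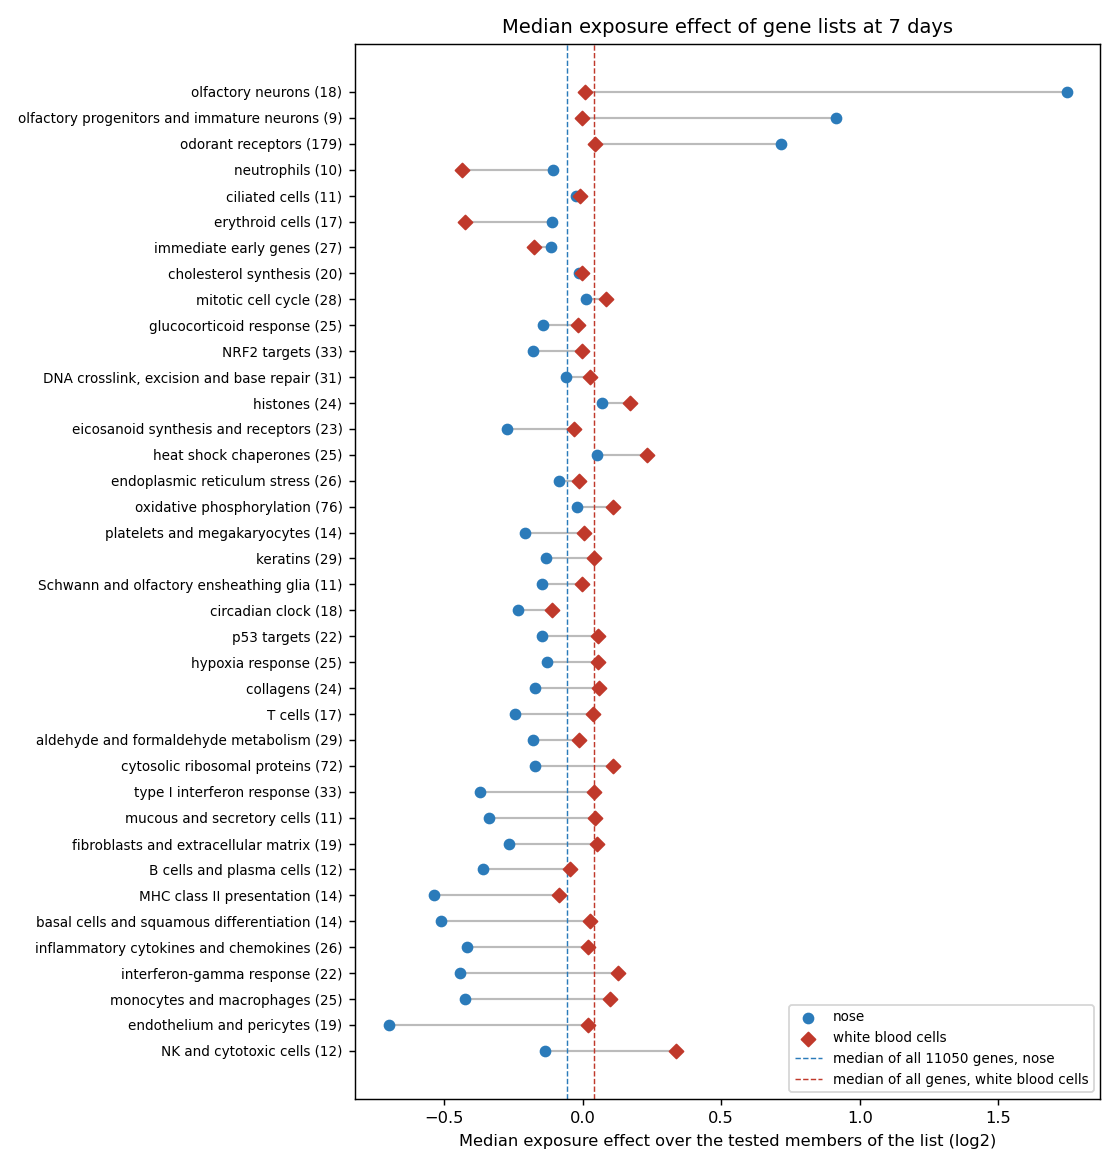
Median exposure effect over the tested members of gene lists at 7 days, in nose (circles) and in white blood cells (diamonds), in log2. The number in parentheses counts tested members, and dashed lines mark the medians of all 11050 genes (-0.06 in nose, 0.04 in blood). Lists with only 5 tested members, those of sustentacular cells, mast cells and vomeronasal receptors, are not drawn. Lists are ordered by the median difference, from olfactory neurons at 1.69 to NK and cytotoxic cells at -0.64.

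Fn1 and several immediate early genes fell in blood with no call in nose. Fn1, fibronectin, a matrix protein that monocytes and macrophages also make, fell from 11.46, 10.70 and 12.15 to 9.47, 10.27 and 8.81 in blood, while nose stood at 10.81 to 11.12 in controls and 10.94 to 11.07 in exposed. The blood arrays did not overlap but were widely spread in both conditions, and the fall was 1.92 (adjusted p = 0.00795) with a difference of 2.01 (adjusted p = 0.0154). Fitted alone, blood did not give a call for Fn1. At 28 days the difference of Fn1 was 2.45. Fos, an immediate early transcription factor, fell by 1.22 in blood, Jund, its partner, by 0.60 and Klf2, a factor of resting lymphocytes and vessels, by 0.48. In nose these 3 had -0.11, -0.0031 and -0.03. Of 27 immediate early genes 6 fell in blood, against 5.48% of all genes, and 4 in nose, against 21.6%. The 6 became 3 without exposed blood array 1 or 3.

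Among rises in blood alone was Ogg1, the glycosylase that removes oxidised guanine from DNA. It went from 8.68, 8.66 and 8.54 to 9.18, 9.28 and 9.32 in blood, a rise of 0.63 (adjusted p = 0.00105), and stayed at 8.72 to 8.84 on all 6 nose arrays. The difference of Ogg1 was -0.67 (adjusted p = 0.00198). Of the 31 genes of DNA repair 5 rose and 0 fell in blood, and 2 rose and 4 fell in nose. Of all genes 7.94% rose in blood, and 13.9% rose and 21.6% fell in nose, so the share in nose lay below that of all genes. The 4 became 1 without control nose array 1 or 3 or exposed nose array 1. The 5 became 1 without exposed blood array 3 and 2 without control blood array 2 or exposed blood array 2. Prdx1, a peroxiredoxin that breaks down peroxides, rose by 0.51 in blood with -0.14 in nose, and the histone gene H4c14 rose by 0.75.

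Cytosolic ribosomal protein genes drew apart by small steps in both tissues. Of 72 tested, 41 had a lower difference, 21 fell in nose and 8 rose in blood, and 69 of 72 differences lay below 0, with a median of -0.26. Of all genes 20% had a lower difference, 21.6% fell in nose and 7.94% rose in blood. The list mean lay 0.12 to 0.26 below the control mean on the exposed nose arrays and 0.10 to 0.14 above it on the exposed blood arrays. The calls in nose were 29.2% of the list and those in blood 11.1%, closer to the shares of all genes than the 56.9% with a lower difference. Without the 3 arrays that stand apart, 9 had a lower difference, 4 fell in nose and 3 rose in blood. Without control nose array 1 the 41 became 24, without exposed nose array 1 they became 26. The 21 in nose became 8 without control nose array 1, 9 without exposed nose array 1 and 13 without control nose array 2, and the 8 in blood became 2 without control blood array 2 and 16 without control blood array 1. Rps26, a protein of the small subunit, had -0.20 and 0.38, and Rpl6, of the large subunit, -0.30 and 0.26 in nose and blood, both in the opposite class. The nose call of Rps26 held in 8 and the blood call of Rpl6 in 7 of the 12 leave-one-out fits. At 28 days 29 of the 72 differences lay below 0, with a median of 0.07, against 0.05 over all genes. Of 76 oxidative phosphorylation genes 16 rose in blood and 11 had a lower difference, with a median of -0.13. The 16 became 9 without exposed blood array 1, and the 11 ran from 5 without control nose array 1 to 20 without control blood array 1. Ndufa6, a subunit of respiratory complex I, had -0.13 in nose and 0.37 in blood.

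**Figure D4:**
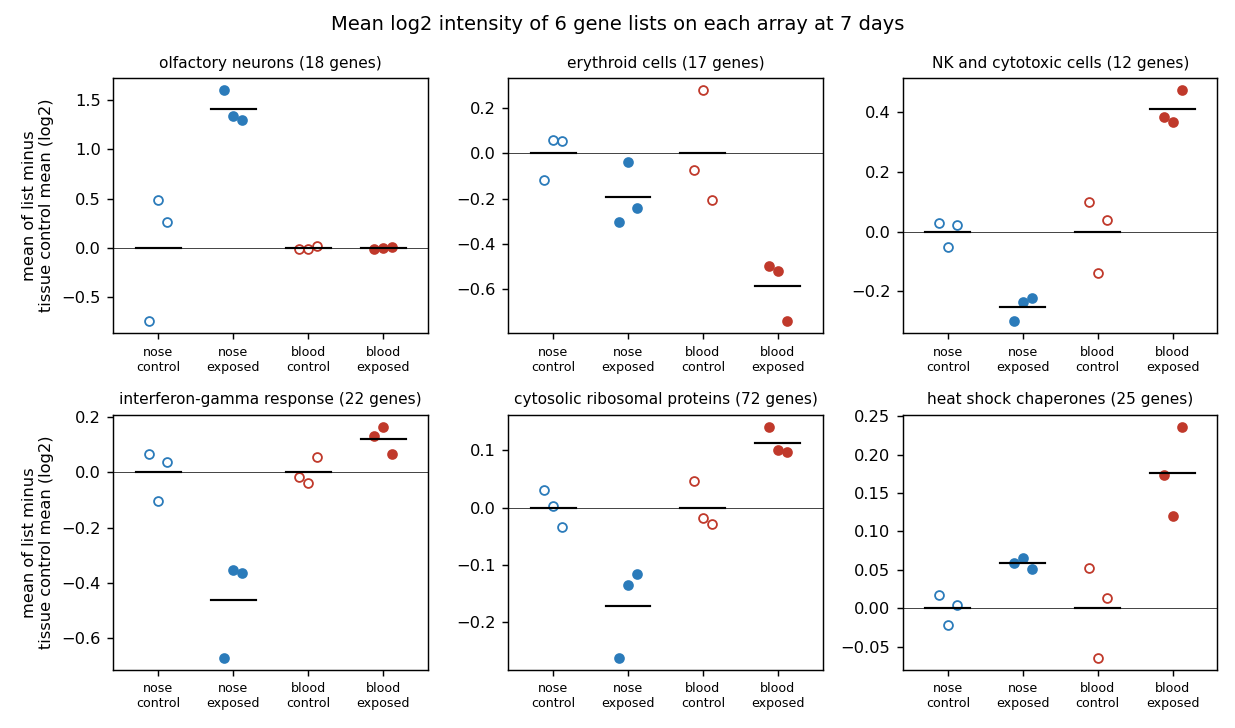
Mean log2 intensity of 6 gene lists on each array, minus the control mean of its tissue (open, control; filled, exposed; blue, nose; red, white blood cells; bars, means of 3 arrays). Exposed nose arrays lie above the controls for olfactory neurons (1.29 to 1.60) and below them for NK, interferon-gamma and ribosomal genes; exposed blood arrays lie below the controls for erythroid genes (-0.74 to -0.49) and above them for NK, interferon-gamma, ribosomal and heat shock genes.

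Genes called in the same direction were more often lower (116) than higher (82). Csf2rb, the shared beta chain of the receptors for GM-CSF, interleukin 3 and interleukin 5, fell by 0.87 in nose and 0.89 in blood, a difference of 0.02 (95% interval -0.56 to 0.60). Alox15, a lipoxygenase that oxidises arachidonic acid, fell by 0.67 and 1.19. Both kept this class in all 12 leave-one-out fits, but the fall of Csf2rb in blood was not called when blood was fitted alone. Among the other genes that did were several of actin-based adhesion, named after their values were seen: Tln1, talin, fell by 0.45 in nose and 0.66 in blood, Flna, filamin A, by 0.34 and 0.38, Zyx, zyxin, by 0.29 in both, and Actn4, an alpha-actinin, by 0.29 and 0.42. Sytl2, which tethers secretory vesicles, rose by 0.61 and 0.47.

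Cacnb4, a subunit of voltage-gated calcium channels, rose by 1.08 in nose and 0.56 in blood, with a difference of 0.52 that was not called (adjusted p = 0.073). Gclm, a subunit of the enzyme that limits glutathione synthesis, fell by 0.71 and 0.93 in nose and blood. Its nose call held in 9 of 12 fits (-0.81 to -0.53), and its blood call ended without exposed blood array 3. Wipi1, a protein of autophagosome formation, fell by 0.82 and 1.08, with the nose call lost without control nose array 1 or exposed nose array 1 (-0.95 to -0.62) and the blood call without exposed blood array 3 (-1.24 to -0.81).

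Among the heat shock chaperones 4 genes, named here after their values were seen, were called higher in both tissues. Hsp90aa1, the inducible cytosolic HSP90, went from 11.34, 11.32 and 11.39 to 11.93, 11.86 and 11.73 in nose and from 10.59, 10.19 and 10.49 to 10.98, 10.74 and 10.91 in blood. No exposed array overlapped a control array, and the rises were 0.49 and 0.45, with a difference of 0.04 (95% interval -0.27 to 0.35). The blood call of Hsp90aa1 ended without exposed blood array 1 or 3 (0.34 to 0.53) and when blood was fitted alone. Its co-chaperones Dnaja1 (0.40 and 0.26), Chordc1 (0.33 and 0.34) and Fkbp4 (0.32 and 0.26) rose too. Of 25 chaperone genes 4 rose and 3 fell in nose, 12 rose and 0 fell in blood, and 0 had a higher and 4 a lower difference. The shares of all genes were 13.9% and 21.6% in nose, 7.94% higher in blood and 20% with a lower difference. The 12 became 3 without exposed blood array 1 or 3 and 4 without control blood array 2, and 7 after quantile normalization across the 12 arrays. Tcp1, of the chaperonin that folds actin and tubulin, moved in blood only, at 0.50 with -0.0032 in nose, and Dnajb1, a partner of HSP70, in nose only, at -0.25 with 0.13 in blood.

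Hspe1 and Hspd1, the pair of mitochondrial chaperonins HSP10 and HSP60, rose in blood by 0.37 and 0.25, with 0.08 and 0.16 in nose and no called difference. The rise of Hspd1 held in 5 of the 12 leave-one-out fits (0.19 to 0.31) and that of Hspe1 in all 12.

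Enzymes that detoxify aldehydes did not share a direction. Aldh2, the mitochondrial aldehyde dehydrogenase, was not called, with -0.08 in nose, -0.19 in blood and a difference of 0.12. Aldh3a1, the dehydrogenase abundant in exposed epithelia, fell by 0.92 in nose with -0.05 in blood, but its difference of -0.87 was not called (adjusted p = 0.108), and its nose call was lost without control nose array 1 or 3 (-1.19 to -0.48). Esd, which hydrolyses the glutathione adduct of oxidised formaldehyde, rose by 0.36 in blood with -0.02 in nose. Its blood call held in 4 of the 12 fits (0.23 to 0.47), and its difference was not called (adjusted p = 0.0638). Cat, catalase, fell by 0.45 in nose and 0.50 in blood. The fall of Cat in nose was lost without control nose array 1 or exposed nose array 1 (-0.58 to -0.34) and that in blood without control blood array 2 or exposed blood array 1 or 3 (-0.57 to -0.41). Aldh1a1 did not pass the filter. Of 29 genes of aldehyde metabolism 4 rose and 12 fell in nose, 1 rose and 1 fell in blood, and 3 had a higher and 8 a lower difference. Of all genes 13.9% rose and 21.6% fell in nose, and 20% had a lower difference. The 12 became 5 without control nose array 1 and 7 without exposed nose array 1, and the 4 became 2 without either. The 8 became 3 without exposed blood array 3 and 4 without control nose array 1. Akr1b8, an aldo-keto reductase, had -1.38 in nose and 0.45 in blood, and its difference held in 4 of the 12 fits (-2.23 to -1.16).

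Of 33 NRF2 targets, genes of the antioxidant response, 3 rose and 14 fell in nose and 1 rose and 4 fell in blood, with 3 higher and 9 lower differences. Of all genes 21.6% fell in nose, 5.48% fell in blood and 20% had a lower difference. The 14 became 9 without control nose array 1 or exposed nose array 1, and the 4 in blood became 0 without exposed blood array 3. Gstp1, a glutathione transferase, moved in nose only, at -0.96 with 0.16 in blood. Of 26 genes of endoplasmic reticulum stress 4 had a higher and 5 a lower difference, near the 11.6% and 20% of all genes, and without control nose array 1 these were 1 and 2. Ppp1r15a, the GADD34 phosphatase subunit that restarts translation after stress, had 0.30 in nose and -0.67 in blood. Its difference of 0.97 was called (adjusted p = 0.00209), and its nose call was lost without control nose array 1 or 3 or exposed nose array 1 or 2 (0.24 to 0.37). Hsd11b1, which regenerates active glucocorticoid, had -0.62 and 0.50, and Car5b, a mitochondrial carbonic anhydrase, -0.69 and 0.88. The blood call of Hsd11b1 held in 7 of the 12 leave-one-out fits (0.36 to 0.62), and both calls of Car5b in 9. Neutrophil genes in blood had a median of -0.44 with 0 of 10 called there. S100a9, a calcium-binding protein of neutrophils and monocytes, had -0.99 and Cxcr2, a chemokine receptor of neutrophils, -1.27, neither past the test, and the list mean ran from -0.25 to 0.51 among the control blood arrays alone.

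The 28 day arrays give the same difference after a longer exposure, on separate arrays. There limma called 38 of the 20076 probe sets (0.189%), 1 (0.00498%) for the effect in nose and 263 (1.31%) for that in blood. Among the genes named here by rule, Gbp2 and Trpc6, a calcium-permeable channel, had a called difference at 28 days, and that of Trpc6 was -1.34 (adjusted p = 0.0405). The sign of the 28 day difference matched that of the 7 day difference for 60.8% of all genes tested, 86.5% of the opposite genes, 80.3% of those in blood only, 73.1% of those in nose only and 56.7% of the same-direction genes whose difference was not called. For the NK and cytotoxic list 12 of 12 differences lay below 0 at 28 days too, with a median of -0.57. The median was 0.19 for monocytes and macrophages, 0.14 for MHC class II, 0.08 for type I interferon and 0.05 for T cell genes. Over all genes the median difference at 28 days was 0.05, so the last 2 lists lay at or near it. The median was -0.24 for interferon-gamma, -0.17 for cytokine and chemokine and -0.15 for endothelium and pericyte genes.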

How the data were processed

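RNA of 12 samples was measured on Affymetrix arrays. The authors deposited 1 normalized intensity per probe set and array, on a linear scale by its values; the submitters' processing notes name Partek, and how values were normalized is not given in the sources used here. Array medians were 305.5 to 311.7 in nose and 174.8 to 180.6 in blood. Precision is limited by having 3 arrays per group.

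Intensities were put on the log2 scale without further scaling. Of 29214 probe sets, 15310 carried 1 gene symbol in the platform annotation, 323 several and 13581 none. Probe sets at or above percentile 25 of the mean in each tissue were kept, and a gene took its probe set of highest mean. In R 4.3.3, limma 3.58.1 (lmFit, contrasts.fit, eBayes) was fitted to 4 group means. P-values were two-sided and adjusted by Benjamini-Hochberg across the 20076 kept, with a call at 0.05, and the fit was tested on simulated data. The 28 day arrays had their own fit. Lists were described by counts and medians, with no test of a list. Leave-one-out fits kept the probe sets of the full fit.

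The 146 genes named by rule were the extremes of each class, the leading members of each list and 5 fixed enzymes. Another 21 were chosen after their values were seen, as were those whose class held in every leave-one-out fit. Members and lists were chosen with earlier results of these data known. Other filters, scalings, a replicate block, other sets of arrays and thresholds were tried as alternatives.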

Additional observations from a re-analysis of the deposited data

Results flagged for a closer look

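The exposure effect differed between the tissues for 5474 probe sets by the test of the difference itself. For 23 named genes both effects were also called, in opposite directions. Of those higher in nose and lower in blood, the difference of effects (log2) was 2.78 for Dmtn, 2.41 for Add2, 2.14 for Tmod1, 2.08 for Sdc3, 1.49 for Cmpk2, 0.97 for Ppp1r15a and 0.48 for Sqle, an enzyme of cholesterol synthesis. Of those lower in nose and higher in blood, it was -2.06 for Cxcr6, -1.57 for Car5b, -1.48 for Ifi47, -1.44 for Klrc3 and -1.33 for Il12rb2. In the same direction it was -1.12 for Hsd11b1, -1.04 for Ctss, -0.92 for Psme2, -0.86 for Il18, -0.84 for Nkg7 and -0.80 for Ifi44l. The smallest were -0.65 for Ccl5, -0.58 for Rps26, -0.56 for Rpl6, -0.55 for Cd3g and -0.48 for Uqcr11, a subunit of respiratory complex III. Groups of 3 arrays were not tested for outlying arrays.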

How the results depend on the processing

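No named result past the threshold reversed its direction, and results not past it were left out of this count. Of 340 named results past the threshold, alternatives kept the call in 7910 cases and lost it in 663. Counts below are of probe sets. Without a filter on dim probe sets, 176 moved in the same direction and 150 in opposite directions; with a filter at the median, 3617 were called in nose and 1856 were nose only. With all 24 arrays in the fit the counts were 2141 for the difference, 3520 for nose, 477 for blood, 1570 nose only, 229 blood only, 31 same direction and 30 opposite. With each tissue fitted alone they were 599 for blood, 349 blood only, 106 same direction and 90 opposite. Without the 3 arrays that stand apart, an alternative chosen after seeing the data, they were 2654, 3111 and 1314 for the difference, nose and blood, and 1698, 509, 100 and 96 for nose only, blood only, same direction and opposite. At an adjusted p under 0.1 they were 3834 for blood, 1713 blood only, 605 same direction and 608 opposite. With a limit of 1.5-fold added they were 2207, 1673 and 348 for the 3 comparisons and 1286, 204, 11 and 20 for these classes. Over the 12 fits that left out 1 array, the ranges were 3745 to 5395 for the difference, 3755 to 6480 for nose, 1125 to 2729 for blood, 2132 to 3383 nose only, 560 to 1351 blood only, 131 to 289 same direction and 111 to 317 opposite. The cause of these shifts was not tested beyond the smaller number of arrays or probe sets that some settings leave.

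Residuals of same-numbered arrays correlated at -0.28 to 0.03 between control and exposed and at -0.08 to 0.05 between nose and blood. These values cannot decide whether same-numbered nose and blood arrays share a rat. The groups are small, and residuals of different tissues need not correlate within a rat. With the replicate block shared by the tissues the difference was called for 4265 probe sets, and with the block across all groups for 4492, where 155 were opposite.

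The share of higher calls in blood, 59.6%, was 46.3% after quantile normalization across the arrays, 49.5% within each tissue and 44.6% after median centring.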
